A study of Mus musculus with 33 samples.

Results

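The endothelial cells of mouse bone were compared with the whole marrow they run through. The comparison holds 6 of the 33 libraries of the series, 3 of bone endothelial cells (bone EC) and 3 of whole bone marrow cells (BMC). Of the 38899 genes in the deposited table, it takes the 13194 that reached 1 FPKM (fragments counted on a gene, scaled for its exon length and for the size of the library) in at least 3 of the 6 libraries. The bone EC were GFP-positive cells sorted from femur and tibia of Cdh5-mTnG mice, a genotype whose name ties the fluorescent reporter to Cdh5, the gene of the endothelial cadherin. BMC came from femur and tibia of wildtype mice. All were untreated C57BL/6 animals aged 8 to 12 weeks, and the labels do not say whether replicates were separate animals, so the p-values measure only the spread between these libraries. Xist measured 24.4, 23.3 and 0.0215 FPKM in the BMC libraries and Ddx3y, a Y-linked gene, 0.0589, 6.55 and 2.91 in the bone EC libraries, so the 3 libraries of a group were not all repeats of 1 sample. The bones were crushed and digested with collagenase IV before sorting. The library kits differed between the groups: the BMC libraries came from a TruSeq Stranded Total RNA kit, which keeps RNA without a poly(A) tail, and the bone EC libraries from a kit that primes on poly(A) tails and amplifies cDNA from few cells (SMART-Seq v4, then Nextera XT). Within bone EC against BMC the kit and the cell population cannot be told apart.

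Endothelial cells line all blood vessels, and are recognised by junction proteins, by receptors for the VEGF and angiopoietin ligands and by transcription factors of the ETS, SOX and KLF families. In marrow most of them line sinusoids, wide and leaky venous channels that scavenge material from the blood and through which mature blood cells leave. Marrow endothelium also supplies factors that maintain blood stem cells. Whole marrow is made mostly of granulocytes, erythroid precursors, B cell precursors and monocytes.

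To show the regulatory DNA of gene groups described below, 250 bases before the annotated start site are printed for a pair of endothelial genes, a pair of neutrophil genes and a pair of erythroid genes, 5′ to 3′ on the gene's strand, from RefSeq on build GRCm38.p6. Capitals mark 1 match, on either strand, to the motif named for that pair: GGAAGT for ETS factors (Kdr and Tie1), TTGCNNAA for C/EBP factors (Ltf and S100a9) and AGATAA for GATA factors (Alas2 and Hbb-bs). Matches to the other motifs were left in lower case and may lie in the same window. The printed genes were picked from list members that hold the motif of their pair, and among those for large differences. A match in each pair was therefore fixed by the choice, and the shares over all members follow the sequences. Kdr and Tie1 encode receptors for VEGF and in the angiopoietin pathway, and the windows are chr5:75978456-75978705 (minus strand) and chr4:118489850-118490099 (minus strand).
Kdr: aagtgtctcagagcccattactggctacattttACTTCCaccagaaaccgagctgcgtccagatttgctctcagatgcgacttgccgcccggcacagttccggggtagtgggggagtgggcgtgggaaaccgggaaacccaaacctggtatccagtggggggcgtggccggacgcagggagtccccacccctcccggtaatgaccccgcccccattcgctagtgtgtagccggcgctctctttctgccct
Tie1: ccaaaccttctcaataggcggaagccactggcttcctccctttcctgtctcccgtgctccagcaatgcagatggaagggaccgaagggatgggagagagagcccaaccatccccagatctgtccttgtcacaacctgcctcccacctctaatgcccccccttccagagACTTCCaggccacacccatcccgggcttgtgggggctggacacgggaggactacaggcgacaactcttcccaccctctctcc
Ltf and S100a9 encode the granule protein lactoferrin and a subunit of calprotectin, at chr9:111019042-111019291 (plus strand) and chr3:90695722-90695971 (minus strand).
Ltf: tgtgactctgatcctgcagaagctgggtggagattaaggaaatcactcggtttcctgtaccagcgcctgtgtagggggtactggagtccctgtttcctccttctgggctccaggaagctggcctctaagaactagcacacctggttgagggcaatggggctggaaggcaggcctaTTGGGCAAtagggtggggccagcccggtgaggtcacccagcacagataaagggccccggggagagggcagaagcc
S100a9: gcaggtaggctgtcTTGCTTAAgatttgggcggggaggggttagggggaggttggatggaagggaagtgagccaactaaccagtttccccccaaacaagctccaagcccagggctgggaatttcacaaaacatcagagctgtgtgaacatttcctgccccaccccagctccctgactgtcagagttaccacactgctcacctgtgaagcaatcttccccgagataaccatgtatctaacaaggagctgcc
Alas2 and Hbb-bs encode the erythroid enzyme of haem synthesis and a beta globin, at chrX:150547167-150547416 (plus strand) and chr7:103827929-103828178 (minus strand).
Alas2: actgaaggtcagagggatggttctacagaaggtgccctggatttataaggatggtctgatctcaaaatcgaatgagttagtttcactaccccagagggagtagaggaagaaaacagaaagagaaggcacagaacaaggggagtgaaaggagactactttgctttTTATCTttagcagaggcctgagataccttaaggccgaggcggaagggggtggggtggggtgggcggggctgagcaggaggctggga
Hbb-bs: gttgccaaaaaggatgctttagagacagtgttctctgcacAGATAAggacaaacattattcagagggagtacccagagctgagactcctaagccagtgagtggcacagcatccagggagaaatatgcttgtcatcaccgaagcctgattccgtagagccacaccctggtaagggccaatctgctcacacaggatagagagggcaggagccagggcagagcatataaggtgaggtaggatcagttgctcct
Among all 32851 promoter windows of this length, 19.7% held GGAAGT, 9.6% held TTGCNNAA, 10% held AGATAA and 3% held ACAATGG, a SOX motif that was also searched on both strands. Of the 18 pan-endothelial genes described below, 10 had a promoter in the RefSeq table, and 4 of those 10 held GGAAGT while 0 held ACAATGG. The late neutrophil genes held TTGCNNAA in 8 of 16, and the erythroid genes held AGATAA in 3 of 13. Counted by gene in the same way, any promoter of the gene included, the shares over 27025 genes were 22.2%, 10.8% and 11.4% for the ETS, C/EBP and GATA motifs. A match describes the letters in the window and not a bound site.

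Depth and spread set what could be compared. Reads assigned to genes, recovered from the FPKM steps, numbered 2716325 to 3255641 per bone EC library and 5100296 to 5713299 per BMC library, and 17138 to 17360 and 16403 to 16770 genes had at least 1 read. The Lin- (lineage-negative) and LSK (Lin-, Sca1-positive, cKit-positive) marrow cells of the same table, also from untreated wildtype mice, were prepared with the BMC kit and with the bone EC kit, respectively. They gave a further, kit-matched contrast: bone EC minus BMC, less LSK minus Lin-. It removes a kit difference that adds equally on the log2 scale, it also carries the differences between LSK and Lin- cells with the opposite sign, and it shares the bone EC and BMC libraries, so it is no independent replicate. Lin- replicate 3 stood apart from the other Lin- libraries, with a chi-square of 89.4 and 98.2 per degree of freedom against them where they gave 12.7 between themselves. Erythroid marker genes took 15.5% of the summed FPKM in that library, against 0.54% and 0.537% in the other Lin- libraries. The shallower LSK libraries, at 1551108 to 1874629 reads, had reads on 23769 to 26308 genes. No library was a copy of another.

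Across the 13194 genes, limma called 4722 higher (35.8%) and 4565 lower (34.6%) in bone EC at a Benjamini-Hochberg adjusted p below 0.05, together 70.4%, and in 74.7% of genes the 3 bone EC libraries did not overlap the 3 BMC libraries. Counts of called genes below stand against these shares. A gene near 0 FPKM in 1 group passed the filter only if all 3 libraries of the other group reached 1 FPKM. The direction of such a gene was thus set by the filter and not by the test. The median difference over all genes tested was 0 on the log2(FPKM + 1) scale, the scale of every difference below unless another is named. In every library of the table, the size divisor of the deposited values was 0.984 to 1.017 times a median-of-ratios size factor. That factor is the library's median ratio to the gene averages, so a median near 0 was largely set by the deposited scaling. Scaling each library to the same summed FPKM, with the filter applied to the scaled values and 14456 genes passing it, moved that median to 0.39 and gave 6752 higher and 2996 lower. Of those calls 69.3% were higher in bone EC, against 50.8% in the main analysis, and over the genes of the main analysis the median was 0.38. In the kit-matched contrast 15708 genes were tested, 3682 (23.4%) were higher and 4448 (28.3%) lower, together 51.8%, with a median of -0.1. With equal summed FPKM 20373 genes passed the filter, that median was -0.78, or -0.54 over the genes of the main analysis, and the counts were 2288 higher and 9216 lower. The parts of the scaling and of the added genes in these counts were not separated. Of the 4722 genes higher in bone EC, 2485 were also higher there, 310 were lower and 1927 were not called. Of the 4565 lower genes, 2161 were also lower, 276 were higher and 2128 were not called. With 3 libraries a group an exact permutation test of a single gene could not go below 0.1, so the calls rest on limma's spread estimate shared across genes.

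Endothelial identity genes separated the groups by far more than the spread between libraries. All but Cd93 of the 18 pan-endothelial genes were higher in bone EC, with a median difference of 5.13 (5.04 when the 2 genes with no BMC read were set at their lower bound), against 0 over all genes. Cldn5, the claudin of endothelial tight junctions, stood at 179, 227 and 242 FPKM in the bone EC libraries and had no read in BMC. Taking 3 reads per library as the limit of detection, it was at least 476-fold higher, and Clec14a, an endothelial lectin, at least 275-fold. Kdr, the main VEGF receptor, measured 83.6, 71.3 and 96.1 FPKM in bone EC and 0.127, 0.18 and 0.317 in BMC, a difference of 6.12 ± 0.14 (SE, adjusted p = 7.5e-08). Tie1, an orphan receptor of the angiopoietin pathway, measured 74, 66.4 and 92.5 against 0.703, 0.666 and 0.822. Neither gene came near overlap between the groups. Cdh5, on which the reporter rests, stood at 64.1, 86.7 and 93.7 FPKM in bone EC and 1.68, 2.3 and 2.9 in BMC. Because the cells were sorted through it, its level describes the sort.

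The smallest differences of the list were those of Cd93, Pecam1, Icam2 and Cd34, which blood cells also make. Pecam1, an adhesion molecule of endothelium, platelets and leukocytes, measured 65.7, 63 and 69.6 FPKM in bone EC and 13.7, 15.6 and 15.8 in BMC (difference 2.07 ± 0.11). Icam2 and Cd34 differed by 2.1 and 2.23, again with no overlap. Cd93, a C-type lectin receptor that is also found on early B cells and myeloid cells, was at 53.9, 73.1 and 70.9 FPKM in bone EC and 58.4, 52.4 and 54.6 in BMC, and the groups overlapped (adjusted p = 0.15, or 0.01 without bone EC replicate 1). In the kit-matched contrast 16 of the 18 were higher, with a median of 5.04. Cd34, a marker that LSK cells share, was not called there. Vwf, the adhesive glycoprotein stored in endothelial granules and platelets, stayed under the filter at 0.681, 0.794 and 1.46 FPKM in bone EC and 1.09, 0.815 and 0.862 in BMC.

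**Figure D1:**
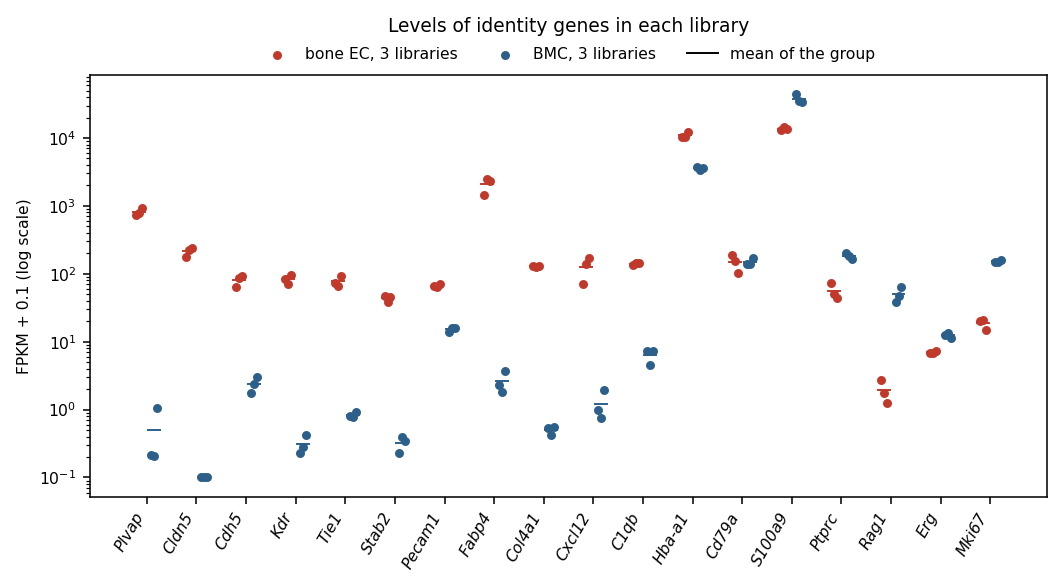
FPKM plus 0.1 on a log axis for 18 genes, each with the 3 bone EC libraries (red) and the 3 BMC libraries (blue); a bar marks the group mean. Endothelial, matrix and stromal genes sit higher in red, though Pecam1 is well above the floor in blue too. Hba-a1, Cd79a and S100a9 are high in both colours, and Ptprc, Rag1, Erg and Mki67 are lower in red.

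Bone EC carried a sinusoidal and scavenger profile. Of the 16 tested genes of that list 14 were higher and 1 was lower, with a median of 3.94, and in the kit-matched contrast 13 were higher and 0 lower, with a median of 4.66. Plvap is the protein of the diaphragms that close endothelial pores. Among ranked genes it had the largest difference toward bone EC, at 9.24 ± 0.23 (limma adjusted p = 1e-07). The ranking covered genes averaging at least 5 FPKM in either group, and its exclusions are given with the processing. Plvap measured 728, 773 and 945 FPKM in bone EC and 0.114, 0.108 and 0.955 in BMC. Stab2 and Stab1, the stabilin scavenger receptors, stood at 47.1, 38.4 and 45.3 and at 34.2, 32 and 39.4 FPKM in bone EC and at most 0.448 in any BMC library. Flt4, the VEGF-C receptor that marks marrow sinusoids, measured 34.3, 25.5 and 39 FPKM against 0.028, 0 and 0.0701. Gpr182, a scavenging chemokine receptor, had no read in BMC and was at least 279-fold higher. Lyve1, a hyaluronan receptor of lymphatic and liver sinusoidal endothelium, was low in both groups, at 1.68, 0.753 and 0.846 against 1.86, 1.51 and 1.25 FPKM, and did not pass (adjusted p = 0.21, or 0.025 and lower in bone EC without bone EC replicate 1). Lrp1, a large endocytic receptor, was the lower member at 4.04, 3.78 and 3.52 against 11.5, 9.55 and 8.88 FPKM, and it was not called in the kit-matched contrast.

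The proteins of fenestrae and caveolae followed. Of 11 tested genes 10 were higher and 0 lower, with a median of 4.51, and 9 were higher in the kit-matched contrast. Cav1, the coat protein of caveolae, was at 46.7, 47.7 and 51.5 FPKM in bone EC with no read in BMC, at least 261-fold higher. Its partners in the coat, listed by their older symbols Ptrf, Sdpr and Prkcdbp, were each at 29.4 FPKM or more in every bone EC library and at most 0.945 in any BMC library. Pacsin2, a membrane-bending protein used by many cells, overlapped between the groups at 28.1, 19.8 and 24 against 30.1, 27.8 and 25.2 FPKM.

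Most arterial and angiogenic markers were higher in bone EC as well. The arterial list had 14 of 16 genes higher and 2 lower (median 1.74), and the tip cell list 13 of 16 higher and 2 lower (median 2.75), or 1 lower without BMC replicate 1 or 2 or bone EC replicate 2 or 3. The kit-matched counts were 11 higher and 4 lower for the arterial list and 13 higher and 3 lower for the tip cell list. Sox17, an arterial transcription factor, measured 7.97, 9.23 and 8.3 FPKM in bone EC and 0, 0 and 0.061 in BMC, and Gja4, an arterial connexin, 11, 15.1 and 16.2 against 0, 0.13 and 0. For both genes the groups did not overlap. Ly6c1 and Ly6a reached 201, 270 and 272 and 257, 332 and 366 FPKM, where BMC averaged 0.431 and 20.4. Aplnr, the apelin receptor, had the largest difference of the tip cell genes, at 139, 121 and 148 FPKM against 0.582, 0.552 and 0.432, and Esm1, a secreted tip cell proteoglycan, measured 8.34, 13.6 and 14.5 against 0.22, 0.312 and 0.183. Cxcr4, the CXCL12 receptor of both lists, went the other way at 52.8, 62.8 and 42.5 FPKM in bone EC and 476, 483 and 457 in BMC, a difference of -3.16 ± 0.15. Jag2 and Hey1, a Notch ligand and target, were higher than in BMC but lower in the kit-matched contrast, at -1.1 and -2.02.

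Junction and basement membrane genes were higher with 1 exception in each list. Cldn15 was the 1 lower gene among 18 junction genes, the other 17 being higher with a median of 2.14 over the list. F11r, a junctional adhesion molecule, stood at 54.9, 52.8 and 71.4 FPKM against 0.346, 0.164 and 0.433, while the catenins Ctnna1 and Ctnnb1, which most cells make, differed by only 0.78 and 0.51. Of 20 matrix genes 19 were higher, with a median of 3.9. The type IV collagen chains Col4a1 and Col4a2, the network of vascular basement membranes, measured 131, 125 and 129 and 94.2, 103 and 97.1 FPKM in bone EC and at most 0.451 in any BMC library, with an SE of the difference of 0.1 for each. Sparc, a collagen-binding matrix protein, reached 721, 1050 and 1170 FPKM against 3.9, 0.584 and 3.83. Fn1, fibronectin, was the lower member at 35.4, 30 and 24.9 against 105, 82.2 and 64.8 FPKM. All 20 tested matrix genes were higher in the kit-matched contrast, Fn1 included at 2.04. The Lin- libraries that enter that contrast themselves held matrix and bone genes: Sparc averaged 459 FPKM in Lin- and 1.7 in LSK. The 18 osteoblast and cartilage genes took 0.725%, 0.998% and 0.239% of summed FPKM in the Lin- libraries, against 0.0252% to 0.0452% in bone EC. How much of the kit-matched difference of such genes comes from this was not tested.

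Most endothelial transcription factors were higher in bone EC. Of 28 tested, 18 were higher and 5 lower, with a median of 1.12 (0.97 with the 5 genes that had no BMC read at their lower bound). Sox18, a SOX factor of the F group, had the largest difference of the list. It measured 128, 147 and 203 FPKM in bone EC against 0, 0.135 and 0 in BMC, and Sox7 and Sox17 of the same group stood between 7.96 and 9.23 FPKM in bone EC. Epas1, the hypoxia factor of endothelium, measured 32, 39.7 and 45.4 FPKM against 0.13, 0.165 and 0.145. Nr2f2, the factor of venous identity, was at 6.01, 7.13 and 8.44 FPKM with no read in BMC, at least 54.6-fold higher. Klf2, which responds to blood flow, was higher by 1.34.

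Several ETS and bHLH factors that endothelium shares with blood cells were lower in bone EC. Erg measured 6.62, 6.7 and 7.16 FPKM in bone EC and 12.6, 13.3 and 11.3 in BMC (difference -0.77 ± 0.11, adjusted p = 0.00051), and Fli1 28, 34.9 and 33.6 against 49.6, 47.3 and 49. Lyl1, a blood bHLH factor, showed the largest drop of the list at 5.62, 6.54 and 4.29 against 32.8, 37.2 and 32.7 FPKM. In these 3 genes no bone EC library reached the lowest BMC library. Ets1 at 55.5, 41.9 and 52.3 against 57, 69.5 and 62.7 FPKM did not pass (adjusted p = 0.061, or 0.033 without bone EC replicate 1). Erg and Fli1 were also lower in the kit-matched contrast, at -1.68 and -0.78, while Tal1, lower by 1.02 in the main comparison, was higher there at 2.2. In that contrast 13 of the list were higher and 7 lower, with a median of 0.47.

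Receptors of the VEGF and Tie pathways were higher in bone EC. Of 17 tested VEGF and Tie genes 15 were higher and 2 lower, with a median of 2.69, and in the kit-matched contrast 14 were higher and 2 lower. Flt1 and Tek, the decoy VEGF receptor and the angiopoietin receptor, measured 15.1, 19.6 and 18.3 and 42.1, 33.5 and 43.3 FPKM in bone EC and at most 0.498 in any BMC library. The growth factors Vegfa and Angpt1 were the 2 lower members. Vegfa stood at 12.5, 7.31 and 5.33 FPKM in bone EC and 20.9, 24.2 and 19.7 in BMC (difference -1.34 ± 0.26, adjusted p = 0.0024), while Vegfc, the ligand of Flt4, was higher at 5.23, 9.04 and 9.96 against 0.368, 1.04 and 0.818. The groups did not overlap in either ligand.

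Notch genes were split. Of 16 tested, 10 were higher and 4 lower, with a median of 0.96. Notch4 and Dll4, the receptor and ligand that endothelium favours, measured 6.85, 7.3 and 7.45 against 0.0858, 0.0542 and 0.0716 FPKM and 18.7, 19 and 19.7 against 0.598, 1.59 and 1.05. Notch1 and Notch2 were lower: Notch2 measured 10.8, 6.97 and 6.93 FPKM in bone EC and 79.5, 68.7 and 53.7 in BMC. Kit-matched, 5 of 17 were higher and 8 lower, and the median was -0.16. Hes1, a Notch target at 72.2, 87.3 and 76.4 against 10.5, 12.4 and 14 FPKM, was lower there at -0.98.

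Receptors of BMP and TGF-beta, guidance and vascular tone are given by their counts. For BMP and TGF-beta genes 12 of 19 were higher and 4 lower (median 1.84), led by Eng, an endothelial co-receptor, at 112, 112 and 146 FPKM against 3.93, 4.85 and 2.63. The 4 lower were the receptors Tgfbr1, Bmpr2 and Bmpr1a and the inhibitor Smad7. Acvrl1, the partner of Eng in endothelium, spread from 17 to 45 FPKM in BMC and overlapped with bone EC. For guidance genes 13 of 15 were higher and 2 lower (median 2.69), or 1 lower without any single library other than bone EC replicate 2, with Ephb4, the venous ephrin receptor, at 40.9, 35.3 and 40.6 FPKM against 0, 0.0471 and 0. For vasoactive genes 16 of 17 were higher (median 2.07), among them Nos3, the endothelial nitric oxide synthase, at 13.4, 13.4 and 13.7 FPKM against 0.112, 0.211 and 0.14. Ptgs2, the inducible prostaglandin synthase, was the lower member at 47, 29.4 and 27.7 against 93.8, 69 and 57.8. Kit-matched counts were, for guidance genes, 15 higher and 0 lower of 17, and for BMP genes 10 higher and 2 lower of 19.

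Genes that act on clotting and on leukocyte capture were mostly higher in bone EC. Of 17 haemostasis genes 10 were higher and 5 lower (median 1.85), and 10 and 5 of 18 in the kit-matched contrast. Inhibitors of clotting were high: Tfpi, the tissue factor pathway inhibitor, at 139, 140 and 219 FPKM against 1.27, 0.959 and 0.493, and Thbd, thrombomodulin, at 122, 86 and 139 against 33.8, 28.7 and 30.1. F8, factor VIII, was at 12.3, 12.7 and 14.2 FPKM against 0.14, 0.287 and 0.408. F3, the tissue factor that starts clotting, measured 0.874, 1.05 and 1.03 FPKM against 2.21, 2.91 and 2.15 and was lower. For adhesion and trafficking 16 of 17 genes were higher and 0 lower (median 2.23), and 11 were higher and 2 lower in the kit-matched contrast. Selectins of endothelium stood apart: Sele measured 44.2, 27.1 and 44.6 FPKM against 0.0791, 0.15 and 0. Selplg, the selectin ligand on leukocytes, overlapped at 187, 167 and 152 against 181, 149 and 116 FPKM. Darc, the older symbol of the venular chemokine receptor, varied within bone EC at 172, 238 and 350 FPKM but stayed far above 1.99, 3.02 and 4.32 in BMC.

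Lipid handling genes held the largest difference toward bone EC after that of Plvap among the ranked genes. Fabp4, the fatty acid carrier of capillary endothelium and fat cells, measured 1450, 2460 and 2350 FPKM in bone EC and 2.17, 1.71 and 3.62 in BMC, a difference of 9.22 ± 0.26. By mean level it ranked 23rd of all genes in bone EC and 9841st in BMC. Gpihbp1, which carries lipoprotein lipase to the vessel wall, was at 198, 363 and 337 FPKM with no read in BMC, at least 372-fold higher. Of 12 fatty acid genes 9 were higher and 2 lower, with a median of 3.01 (2.85 with the 2 genes that had no BMC read at their lower bound). The kit-matched contrast was more mixed, with 8 of 13 higher and 5 lower and a median of 1.94. Slc27a4, a fatty acid transporter, was lower at 23.9, 11.9 and 13.6 against 92, 75.6 and 56.6 FPKM.

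Factors of the blood stem cell niche and markers of stromal cells were higher together. Of 15 niche genes 11 were higher and 1 lower (median 1.68, or 1.28 with Ptn at its lower bound), and all 13 tested mesenchymal stromal genes were higher (median 3.21). Stromal genes near 0 FPKM in BMC could be tested only if high in bone EC, so that count was partly fixed by the filter. Esm1 and Vcam1 of the stromal list also stand in the tip cell and sinusoidal lists. Cxcl12, the CXCR4 ligand that retains stem cells, measured 71.3, 141 and 168 FPKM against 0.902, 0.641 and 1.81, and Kitl, the stem cell factor, 4.65, 5.16 and 6.6 against 0, 0.0379 and 0.1. Both are made by stromal cells as well as by endothelium. Lepr and Adipoq, which define the reticular stromal cells of marrow, measured 7.91, 12.2 and 15.5 and 27.9, 52.8 and 68.6 FPKM in bone EC, and Ibsp, a bone matrix protein of osteoblasts, 33.7, 101 and 92.8 against 0.446, 0.211 and 1.67. Bone EC replicate 1 was the lowest bone EC library in 13 of 13 stromal genes. Osteoblast and cartilage genes were mostly under the filter, with 7 of 18 tested and 4 of those higher, and Col1a1 overlapped at 2.17, 2.94 and 10 against 6.99, 0.865 and 8.32 FPKM.

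The pericyte and smooth muscle list had 5 of 6 tested genes higher, a count under the same limit of the filter. Kcnj8 and Abcc9, the subunits of a vascular potassium channel, measured 90.8, 108 and 147 and 35.6, 31.1 and 41.6 FPKM in bone EC and at most 0.128 in BMC, while Rgs5, a pericyte marker, was at 2.22, 4.53 and 3.27 and Acta2, smooth muscle actin, overlapped at 8.9, 8.44 and 7.74 against 10.4, 7.23 and 7.13. Over the whole list the 13 genes summed to 0.0413% to 0.0559% of FPKM in bone EC and 0.00173% to 0.00256% in BMC, and the 16 stromal genes to 0.0877% to 0.14% and 0.00396% to 0.00506%. The part that stromal or mural cells have in the bone EC values was not tested. In bulk libraries of this kind, fewer cells of a type and less RNA per cell cannot be told apart.

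**Figure D2:**
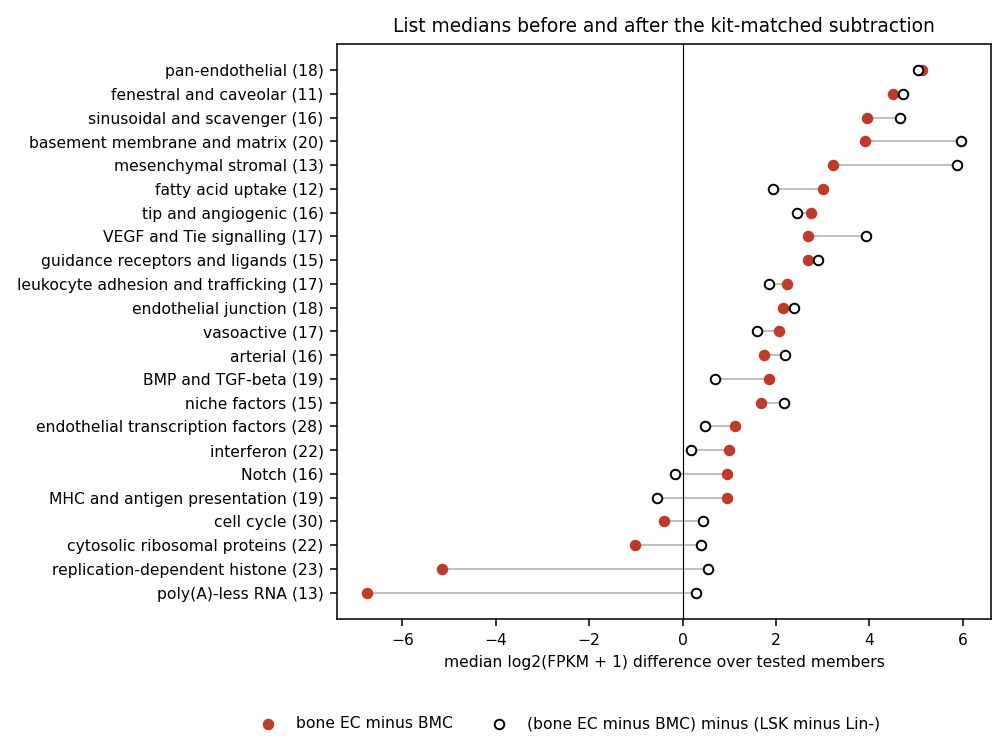
Median difference of 23 lists for bone EC minus BMC (red) and for the kit-matched contrast (open circles) on the log2(FPKM + 1) scale, with the number of tested members in brackets. Vascular lists other than Notch stay on the right in both, while the poly(A)-less and histone medians move from -6.76 and -5.15 to 0.28 and 0.55, and the Notch, antigen presentation, cell cycle and ribosomal protein medians also cross 0.

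Genes of blood cells were abundant in both groups. By mean level the highest gene of bone EC was S100a8, and S100a9, Hbb-bs and Hba-a1 ranked 4th, 3rd and 6th, ahead of Plvap at the 50th place. The 20 late neutrophil genes took 11.5%, 10.5% and 10.7% of summed FPKM in bone EC and 18.5%, 15.5% and 14.9% in BMC, where the 18 pan-endothelial genes took 0.308%, 0.314% and 0.373% and 0.0186% to 0.0194%. None of the 18 pan-leukocyte genes was at 0 in any bone EC library, and together they took 0.541% to 0.683% there and 0.627% to 0.749% in BMC. The sums differ in make-up. Poly(A)-less and mitochondrially encoded genes averaged 11.5% and 17.2% of summed FPKM in BMC, against 0.00537% and 3.46% in bone EC. The other BMC shares are lowered by this, so shares do not compare directly between the groups. The part of blood cells in the bone EC values was not tested.

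**Figure D3:**
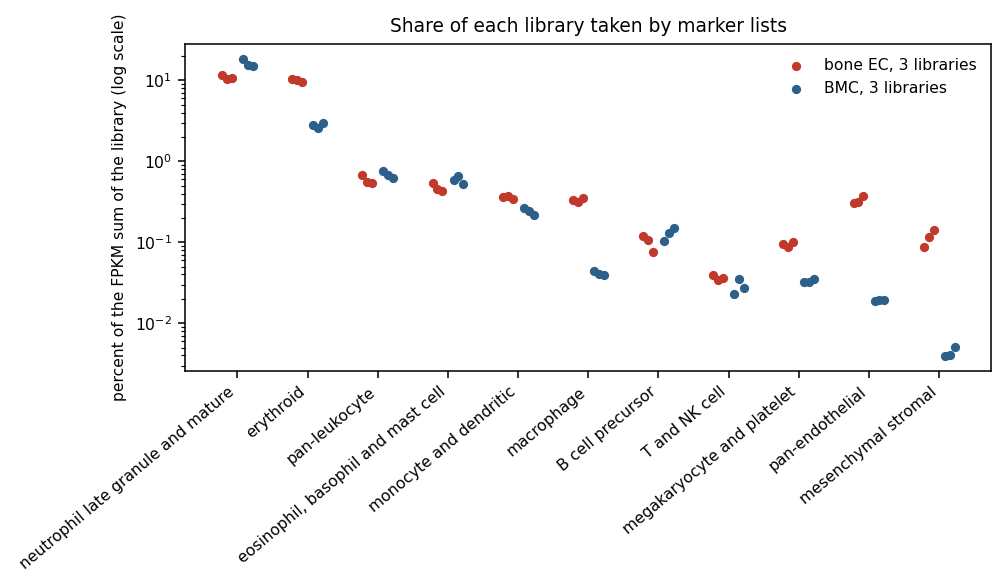
Percent of each library's summed FPKM, on a log axis, taken by 11 marker lists in the 3 bone EC (red) and 3 BMC (blue) libraries. Late neutrophil genes take 10.5% to 11.5% of bone EC and 14.9% to 18.5% of BMC libraries, erythroid genes 9.43% to 10.5% of bone EC and 2.61% to 2.95% of BMC, and pan-endothelial genes at most 0.373% of any library. Poly(A)-less and mitochondrially encoded genes take more of the BMC sums than of the bone EC sums, which lowers the other BMC shares.

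Late neutrophil genes stood below their BMC level in bone EC and were among the most abundant there. Of the 20 late granule genes 18 were lower and 0 higher, with a median of -0.93. With equal summed FPKM the count of lower genes was 10 and the median -0.55. Bone EC levels were 14.3% to 76.5% of the BMC level over the members, with a median of 48.8%. S100a9 measured 12900, 14400 and 13600 FPKM in bone EC and 44200, 34600 and 33300 in BMC (difference -1.44 ± 0.25, adjusted p = 0.0014), and Ltf 1980, 1120 and 1320 against 5150, 4040 and 3470. S100a8, the partner of S100a9, measured 17200, 19100 and 19100 against 38800, 30500 and 29400. In each of the 3 genes the highest bone EC library lay below the lowest BMC library. The call of S100a8 (adjusted p = 0.021) was lost without BMC replicate 2, bone EC replicate 2 or bone EC replicate 3, at adjusted p of 0.054, 0.12 and 0.11. Ngp, another secondary granule protein, overlapped at 8430, 6440 and 6880 against 11100, 9070 and 8210. The primary granule genes of younger neutrophils counted 5 lower and 1 higher of 8 (median -0.5). With equal summed FPKM 1 was lower and 2 were higher (median -0.10). Mpo stood at 335, 294 and 374 against 528, 446 and 445 FPKM. The kit-matched median of late neutrophil genes, -2.88, rests on LSK and Lin- libraries in which these genes took 0.0817% to 0.101% and 0.00278% to 0.00774% of FPKM.

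Leukocyte and B cell genes were lower too. The pan-leukocyte list had 12 of 18 genes lower and 0 higher (median -0.64), or 7 lower and 2 higher with equal summed FPKM. Ptprc, which encodes CD45, measured 72.7, 49.6 and 43.3 FPKM in bone EC and 199, 183 and 164 in BMC, a difference of -1.73 ± 0.19. Bone EC replicate 1 was the highest bone EC library in 15 of these 18 genes. Of 16 B cell precursor genes 14 were lower and 0 higher (median -1.1). Rag1, which cuts immunoglobulin genes, had the largest drop at 2.65, 1.63 and 1.17 FPKM against 38.5, 46.5 and 63.3 (difference -4.17 ± 0.24). Cd79a, a part of the B cell receptor, overlapped at 189, 152 and 104 against 137, 139 and 173, as did the heavy chain Ighm at 1070, 627 and 958 against 1020, 1030 and 1270. Over the B cell precursor list the differences ranged from -4.17 to 0.21, the latter for Sox4. Erg of this list also stands in the endothelial transcription factor list. The mature B and plasma cell list held 4 lower and 2 higher genes of 15 (1 higher without BMC replicate 1), and the T and NK list 10 lower and 3 higher of 20 (median -0.54), or 5 higher without BMC replicate 2.

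Granulocytes of the eosinophil, basophil and mast cell lines showed 13 lower and 1 higher gene of 17 (median -0.75), and 7 lower with equal summed FPKM. Prg2, the major basic protein of eosinophils, was at 1300, 1230 and 1100 FPKM against 1770, 1800 and 1390, and Epx, their peroxidase, at 90, 66.7 and 58.4 against 162, 151 and 125. Neither gene overlapped between the groups, but Prg2 (adjusted p = 0.041) lost its call without BMC replicate 1 or 2 or bone EC replicate 2 or 3, at 0.09 to 0.16. Prss34, a basophil protease, did, at 206, 165 and 193 against 177, 216 and 250 FPKM.

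Erythroid genes were higher in bone EC in 15 of 23 and lower in 4, with a median of 1.13. The alpha globin Hba-a1 measured 10300, 10500 and 12200 FPKM in bone EC and 3700, 3410 and 3630 in BMC, and Hbb-bs 15800, 15900 and 12700 against 7250, 6580 and 7330. Alas2 stood at 914, 595 and 559 against 281, 245 and 257. The groups did not overlap in any of these. The near-identical globin copies may share reads, so their split is uncertain. The 4 lower genes had long messages, with 6185 to 13527 exon bases (median 10919), where the 15 higher genes had 667 to 13838 (median 1989), so the ranges overlapped. Kit-matched, 13 were higher and 0 lower, but without Lin- replicate 3 they were 15 and 5.

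Genes of resident macrophages and of antigen presentation were higher in bone EC. Of 18 macrophage genes 15 were higher and 0 lower (median 1.79). In the kit-matched contrast 12 were higher and 1 lower (0 lower without Lin- replicate 3). The complement chains C1qa, C1qb and C1qc, which tissue macrophages make, were among them, and C1qb had the largest difference of the list: it measured 136, 144 and 143 FPKM against 7.2, 4.41 and 7.25. Mertk and Axl, receptors for dying cells, measured 4.1, 3.09 and 2.67 against 0.372, 0.352 and 0.621 and 24.1, 25.5 and 28.6 against 3.85, 3.82 and 5.01. Emr1, the older symbol of the F4/80 gene, overlapped at 39.8, 25.5 and 26 against 28.6, 32.5 and 21.9. The 20 macrophage genes together, of which Mrc1 and Vcam1 are also made by sinusoidal endothelium, took 0.31% to 0.353% of FPKM in bone EC and 0.0397% to 0.0435% in BMC.

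Monocyte and dendritic cell genes were mixed, with 9 higher and 4 lower of 16 (median 0.66), or 2 lower without BMC replicate 1, BMC replicate 2 or bone EC replicate 3. Siglech and Bst2, markers of plasmacytoid dendritic cells, were at 46.9, 61.2 and 50.3 and 197, 235 and 236 FPKM in bone EC against 10.1, 26.2 and 24.4 and 38.6, 55.4 and 54.9 in BMC. Csf1r, the receptor that monocytes and macrophages depend on, overlapped at 77.4, 55.3 and 59 against 64.8, 51.6 and 45.8. For antigen presentation 15 of 19 genes were higher and 2 lower (median 0.94), or 1 lower without BMC replicate 2 or 3 or bone EC replicate 2 or 3. The class II genes H2-Ab1 and Cd74 measured 678, 753 and 643 against 101, 162 and 139 and 2360, 2610 and 2180 against 434, 675 and 604 FPKM. None of the 19 was higher in the kit-matched contrast and 10 were lower, while LSK libraries themselves held 1.28% to 1.35% of FPKM in these genes, against 0.226% to 0.353% in Lin-. Ciita, the activator of class II genes, did not pass at 5.83, 5.6 and 4.25 against 5.88, 9.23 and 7.18 (adjusted p = 0.066, or 0.032 without BMC replicate 1).

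Platelet and megakaryocyte genes were higher in 11 of 14 and lower in 1 (median 1.06). Pf4, a platelet chemokine, stood at 64.4, 63 and 103 FPKM against 5.51, 11.2 and 13.8, and Ppbp at 31.1, 47.5 and 47.5 against 0.64, 0.809 and 4.45. Selp, P-selectin, is shared with endothelium. Itgb3, the integrin subunit of platelets, was the lower member at 7.41, 5.37 and 5.65 against 13.9, 17.1 and 11.4 FPKM. Of 14 stem and progenitor genes 8 were higher and 3 lower (median 0.5), but kit-matched 4 of 19 were higher and 11 lower (median -1.14), and several of the higher ones, Procr, Fgd5 and Ly6a, are also endothelial. Kit, the stem cell factor receptor, was lower at 6.84, 5.27 and 5.96 against 13.9, 12.9 and 11.8 FPKM.

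The largest differences toward BMC were RNA classes that lack a poly(A) tail. In bone EC 12 of 13 such genes were lower and 0 higher, with a median of -6.76 (-6.29 with the 5 genes that had no bone EC read at their bound). Rn7sk, a RNA that restrains transcription elongation, measured 6.61, 13.8 and 11.7 FPKM in bone EC and 50200, 50300 and 41400 in BMC. Rmrp, the RNA of a processing nuclease, had no read in bone EC and was at least 1600-fold lower. The replication-dependent histone messages, which end in a stem-loop in place of a tail, were lower in 22 of 23 genes (median -5.15, or -5.09 with bounds), as in Hist1h1a at 1.83, 3.5 and 3.69 against 865, 999 and 1150 FPKM. Hist1h2bc was the exception at 19.3, 23.1 and 22.5 against 21.6, 24.3 and 32.1.

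These classes followed the kit in all 4 populations. The poly(A)-less genes took 10.7% to 12.3% of summed FPKM in BMC and 8.72% to 15.7% in Lin-, but 0.00301% to 0.00742% in bone EC and 0.0023% to 0.0128% in LSK. Histone genes took 0.989% to 1.29% and 1.57% to 2.05% in the former pair and 0.0525% to 0.0718% and 0.0665% to 0.0758% in the latter. Kit-matched, 2 poly(A)-less genes and 9 histone genes were higher and none of either list lower, with medians of 0.28 and 0.55. Without Lin- replicate 3, 4 poly(A)-less genes were higher, and without it or LSK replicate 2, 1 histone gene was lower. Outside the lists, 3 genes of such classes were lower in the kit-matched contrast too, Scarna10, Hist1h2bg and Metazoa_SRP, with fitted differences of -2.11, -2.13 and -1.54 (limma adjusted p = 0.012, 0.0017 and 0.003). The call of Scarna10 was lost with gene length and GC adjusted (0.14). Scarna10 had no read in bone EC. At the bound of 3 reads per library its main difference was -9.03 in place of -10.91, and that bound was not carried into its kit-matched value. The mitochondrial ribosomal RNA mt-Rnr2 was also lower in bone EC, at 2140, 3930 and 3600 FPKM against 73400, 77500 and 90800 in BMC.

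**Figure D4:**
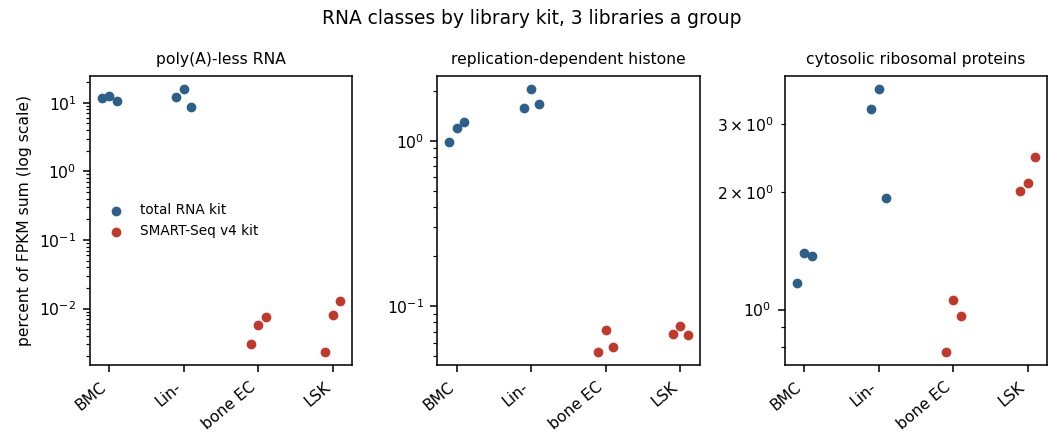
Percent of summed FPKM, on log axes, taken by poly(A)-less RNA, replication-dependent histones and cytosolic ribosomal proteins in the 3 libraries of BMC, Lin- (total RNA kit, blue), bone EC and LSK (SMART-Seq v4 kit, red). Poly(A)-less RNA lies at 8.72% or more in blue and at 0.0128% or less in red; the axis range differs between panels.

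Some of the largest differences toward bone EC were also seen between LSK and Lin-. Lars2, a mitochondrial leucyl-tRNA synthetase, was at 2530, 4360 and 4370 FPKM in bone EC and 8.19, 5.96 and 8.28 in BMC, and it averaged 1300 in LSK and 8.35 in Lin-. The microRNA gene listed as mmu-mir-6236 averaged 1280 and 3.75 FPKM in bone EC and BMC and 788 and 3.74 in LSK and Lin-. By contrast Plvap, Fabp4 and Cldn5 averaged 1.4 FPKM, 1.04 FPKM and 0.365 FPKM in LSK. Kit-matched, Lars2 was still called higher at 1.45 (limma adjusted p = 0.049), and mmu-mir-6236 at 0.87 was not called. The other genes among the 15 largest included Igfbp7, a matrix-bound growth factor carrier of vessels, at 539, 762 and 769 FPKM against 0.19, 0.9 and 1.43, and Ubd, a ubiquitin-like protein, at 129, 188 and 310 against 0.248, 0.235 and 0.62. Cyp4b1, a cytochrome P450, measured 142, 160 and 190 against 0, 0.39 and 0.429. Neither Ubd nor Cyp4b1 averaged over 1.57 FPKM in LSK or Lin-. The TruSeq kit keeps strand, and the strand setting of the counting is not given in the sources used here, so reads of a gene and of its antisense partner may not be told apart. Antisense genes were higher in 82.8% of 400 and lower in 4%, and mt-Nd6, the mitochondrial gene encoded on the other strand, measured 167, 343 and 242 FPKM against 1.33, 2.94 and 2.59.

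Outside the RNA classes, the 8 lower protein-coding genes with the largest differences were taken from the ranked genes. In order they were Sun2, Rag1, Tcf20, Tatdn2, Lyst, Bak1, Abca13 and Myh9, of which all but Rag1 were picked with their values in view. Sun2, a protein of the nuclear envelope, measured 7.76, 6.84 and 6.66 FPKM in bone EC and 222, 189 and 168 in BMC. Lyst, a regulator of lysosome and granule size, measured 4.21, 3.9 and 2.87 against 84.1, 63 and 55.1. Both were also lower in the kit-matched contrast, at -3.17 and -3.22, and averaged 7.83 FPKM and 2.2 FPKM in LSK. Tcf20, Tatdn2 and Bak1 behaved otherwise: their differences of -4.07, -3.99 and -3.58 became -0.58, -0.72 and 0.93 in the kit-matched contrast, where Bak1 was called higher (limma adjusted p = 0.023). That call was lost without BMC replicate 2, Lin- replicate 2 or bone EC replicate 3, with a pseudocount of 5, with equal summed FPKM and with length and GC adjusted, and that of Tcf20 with length and GC adjusted.

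Gene length moved with the differences. With genes cut into 5 equal groups by exon length, the median difference ran from 0.4 in the shortest (17 to 1801 bases) through 0.39, 0.09 and -0.24 to -0.6 in the longest (7033 to 123179 bases). The share of genes called higher went from 46.8% to 18.5% and the share called lower from 26.2% to 58.6%. For LSK minus Lin-, where the kits differ in the same way, the medians ran from 0.12 to -0.18. For Lin- minus BMC, within the total RNA kit, they ran from 0 to -0.1, and for bone EC minus LSK, within the SMART-Seq kit, from 0.26 to -0.17. Across the 12417 genes with an annotated length, which share libraries and depth, Spearman's rho between length and difference was -0.27. With length and GC content adjusted, an alternative added after seeing the data, the pan-endothelial list had 18 of 18 genes higher and a median of 5.05, and the late neutrophil list had 18 lower of the 18 with a length. The erythroid median fell from 1.13 to 0.6.

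**Figure D5:**
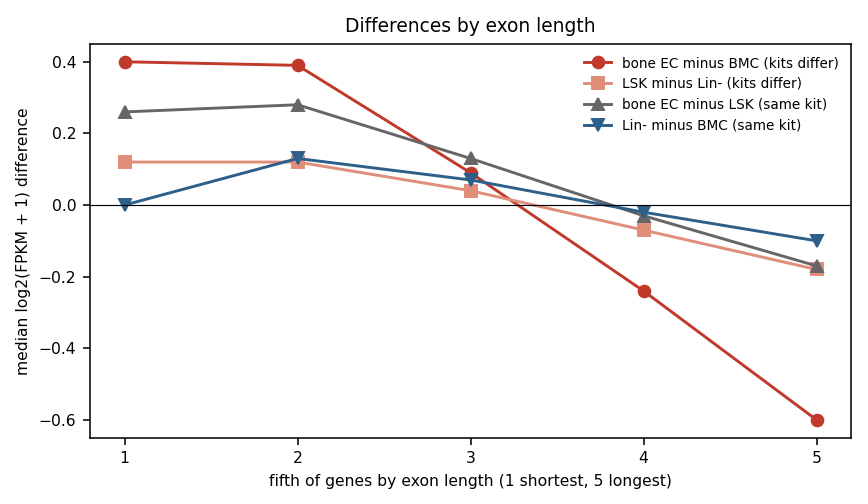
Median log2(FPKM + 1) difference over 5 equal groups of genes by exon length for 2 contrasts across kits (bone EC minus BMC, LSK minus Lin-) and 2 within a kit (bone EC minus LSK, Lin- minus BMC). The bone EC minus BMC line falls from 0.4 to -0.6, the steepest of the 4.

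Most proliferation genes were lower in bone EC, a count that depended on the scaling. Of 30 cell cycle genes 18 were lower and 3 higher, with a median of -0.39, and with equal summed FPKM 9 were lower and 7 higher with a median of 0.01. Mki67, the proliferation antigen, measured 20.1, 20.5 and 14.8 FPKM against 147, 148 and 161 (difference -2.99 ± 0.14), and Top2a, a topoisomerase of dividing cells, 28.2, 28.7 and 24.3 against 110, 95.7 and 110. Birc5 and Rrm2, also made by dividing cells, were higher at 29.6, 35.1 and 30 against 17.9, 19.3 and 24.9 and at 102, 110 and 102 against 75.4, 74.3 and 85. The 18 lower genes had a median exon length of 4546 bases and the 3 higher ones 2771. Kit-matched, 12 were higher and 1 lower, and Mki67 was not called. The higher count was 7 without BMC replicate 1 or 2, LSK replicate 1 or 3, or bone EC replicate 2, and the lower count was 5 without Lin- replicate 3.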

How the data were processed

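Gene expression was read from a deposited table of FPKM values, which the authors computed per gene and library. Per the submitters' processing notes the build was mm10 and the tools were TopHat2 2.1.1, DESeq2 1.18.1, HTSeq 0.6.1 and bcl2fastq 2.19.1.403, with no roles given; the strand setting of the counting is not given in the sources used here. Rows whose symbols had turned into dates (27) were left out. FPKM steps gave whole reads, within 0.005 reads, for 100% of genes with a value, hence the depth and detection limits of 3 reads per library (counting error only).

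Values were tested as log2(FPKM + 1) with limma 3.58.1 in R 4.3.3 (eBayes with trend, two-sided, Benjamini-Hochberg adjusted over all genes tested) on genes at 1 FPKM or more in 3 libraries, for bone EC against BMC on 6 libraries and for the kit-matched contrast on 12. In simulated reads 200 genes with a mean FPKM of at least 5 were changed. The 13194-gene test found 63% and 95% of changes of 1 and 2 (log2), and the 15708-gene test 26% and 80%. False calls made up 7.1% and 5.4% of their calls. Genes of lower level were not changed, and far more genes were called in the data than were changed there. These rates therefore do not describe all genes tested. Genes were named by rule: 12 identity genes, the 15 largest differences each way, per list up to 6 passed, 3 opposite and 3 not passed, and any member of lists of up to 20. The 15 largest were ranked among called genes without overlap whose higher group averaged at least 5 FPKM. The ranking left out predicted genes (Gm with digits, names ending in Rik) and immunoglobulin and T cell receptor segments. It also left out the poly(A)-less and histone lists. Outside the rule, Nr2f2, Klf2, Fli1, Ctnna1, Ctnnb1, Hbb-bs, Sun2, Tcf20, Tatdn2, Lyst, Bak1, Abca13, Myh9, Hist1h2bg and Metazoa_SRP were picked with their values in view. The comparison and its 44 gene lists were chosen with earlier results of these data known. Alternatives tried are given in the closing section.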

Additional observations from a re-analysis of the deposited data

How the results depend on the processing

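All values here are counts of called genes, or medians and differences on the log2(FPKM + 1) scale unless another is named. The cause of each shift was not tested. For bone EC against BMC, 9287 calls became 6069 (2947 higher) where only the 8286 genes with a mean FPKM of at least 5 were tested, a filter that also brought the T and NK median to 0.25. With each library scaled to the same summed FPKM there were 2996 lower calls, and the glycolysis and cholesterol medians turned to 0.28 and 0.18. Adjusting for length and GC, an alternative chosen after seeing the data, turned the glycolysis median to 0.08 and Acta2 to -0.39. Leaving out 1 library gave 8327 to 9412 calls, 4290 to 4698 of them higher and 4037 to 4714 lower. For the kit-matched contrast the mean filter gave 4473 calls (2345 higher, 2128 lower) and a transcription factor median of -0.26, and no filter gave 7480 lower. Equal summed FPKM gave 2288 higher, 9216 lower and an interferon median of -0.28, and the same scaling outside the kit-related lists 8435 lower. Length and GC turned the long non-coding RNA median to 0.05. Across libraries left out in turn, calls ran from 7357 to 8816 (3302 to 4039 higher, 4053 to 4777 lower), Alas2 from -2.70 to 1.59 and Hba-a1 from -2.36 to 1.98, the low ends without Lin- replicate 3. Replicates of equal number did not deviate together (correlations of 0.09, -0.04 and -0.02 between bone EC and BMC), and a replicate block gave 9115 and 7940 calls. Depth limits what a library without a read can show to 3 reads, and how detection varies with level was not simulated.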

Other observations

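Genes that interferon induces stood above their BMC level. Of 22 tested genes 16 were higher in bone EC and 1 was lower, with a median difference of 1.0, and in the kit-matched contrast 5 were higher and 2 lower (1 without LSK replicate 1 or 3 or bone EC replicate 2 or 3). The 1 lower gene was not called without any 1 of the 3 BMC libraries or bone EC replicate 2 or 3. Iigp1, an interferon-induced GTPase, measured 28.5, 26.9 and 40.9 FPKM in bone EC and 0.295, 0.56 and 1.17 in BMC. Isg15, a ubiquitin-like modifier, measured 103, 94.3 and 96.2 against 15.2, 13.6 and 16.8, and both genes were without overlap. Bone EC replicate 2 was the lowest bone EC library in 17 of the 22 genes.

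Immediate early and heat shock genes, which tissue digestion can induce, were higher in 9 of 16 and lower in 2, with a median of 0.67. Jun measured 187, 173 and 138 FPKM against 38.7, 42.4 and 44.2, while Fosl2 of the same family was lower at 37, 35.9 and 28.9 against 196, 173 and 128. In 14 of the 16 genes bone EC replicate 1 was the highest and in 14 bone EC replicate 3 the lowest of the bone EC libraries. Kit-matched, 3 were higher and 4 lower. The 16 genes took 0.804% to 1.13% of summed FPKM in bone EC and 0.444% to 0.578% in BMC. In LSK they took 1.7% to 1.94%, and in Lin- 0.249% to 0.559%. The part of digestion in these values was not tested.

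Glycolysis and hypoxia genes counted 4 higher and 8 lower of 20, and the higher count ran from 1 to 5 as single libraries were left out, at 1 without BMC replicate 2 or bone EC replicate 3 and 2 without BMC replicate 3. Hk2, the inducible hexokinase, and Pgk1, a glycolytic kinase, measured 4.76, 5.48 and 4.76 and 33.9, 36.6 and 35 FPKM in bone EC and 23.4, 21.9 and 19 and 139, 120 and 108 in BMC. Kit-matched, 13 of the 20 were lower. Cholesterol synthesis genes counted 2 higher and 7 lower of 18. Cytosolic ribosomal protein genes were lower in 16 of 22 and higher in 0 (1 without bone EC replicate 1). The listed long non-coding RNAs were lower in 7 of 8 and higher in 0, and mitochondrially encoded genes higher in 6 and lower in 4 of 14. Kit-matched, 2 ribosomal protein genes were higher and 0 lower, and the median went from -1.01 to 0.4. That higher count was 7 without Lin- replicate 3, 5 without bone EC replicate 1 and 0 without any other single library except LSK replicate 3. Bone EC replicate 1 was the lowest bone EC library in 22 of 22 tested ribosomal protein genes and 14 of 14 tested mitochondrial genes.

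Sex-linked genes differed within each group. Of 4 tested, 1 was higher and 0 lower. Xist, made from the inactive X, measured 8.43, 3.56 and 9.16 FPKM in bone EC and 24.4, 23.3 and 0.0215 in BMC, and Ddx3y, a Y-linked gene, 0.0589, 6.55 and 2.91 and 0, 0.0471 and 17.5. BMC replicate 3 alone of the BMC libraries had high Ddx3y and low Xist, and bone EC replicates 2 and 3 held both. Without BMC replicate 3, Xist was lower in bone EC by limma (difference -1.71, adjusted p = 0.0052).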
